A study of Mus musculus with 27 samples.

Results

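The comparison described here is that of W12-HM with W12-HT mice, the homozygous and heterozygous *Shank2*-mutant mice at 12 weeks of age, and it covers 8 of the 27 mice of the study, 4 of each genotype. The members were chosen by the genotype and age in the sample labels, and no measured value entered the choice. W12-HT mice carried 1 mutant copy of *Shank2* and W12-HM mice carried 2, in a line that lacks a pair of consecutive *Shank2* exons. Both groups were males on a C57BL/6 background, and no treatment, transgene or Cre driver is given for either. The study sequenced poly-A RNA from the medial prefrontal cortex (PFC) of single, unpooled brains of wild-type (WT) mice and both mutant genotypes, 5 mice each at 3 weeks (W3) and 4 each at 12 weeks (W12), to ask how gene dosage and age shape the transcriptome. The direct comparison of HM with HT asks what differs when the second copy of *Shank2* is lost as well as the first. The deletion was constitutive, so every cell of the tissue carried it, and the labels do not state which mice were littermates.

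Shank2 is a scaffold protein of the postsynaptic density of excitatory synapses, the protein mesh beneath glutamate receptors. Together with its relatives Shank1 and Shank3 it links receptor-bound scaffolds such as PSD-95 (encoded by *Dlg4*) and SAPAP proteins to Homer and to the actin cytoskeleton. Mutations of *SHANK2* are associated with autism spectrum disorders (ASD) and intellectual disability. In the PFC, excitatory pyramidal neurons are controlled by GABAergic interneurons, whose classes are told apart by peptides and calcium-binding proteins such as VIP, somatostatin, NPY and parvalbumin.

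Values are the authors' normalized counts, that is, read abundances per gene scaled to make the 27 samples comparable. Of the 18757 genes in the table, 17243 had a mean of at least 10 normalized counts over the 8 mice and were tested. An offset of 1 was added before taking log2, and the values of the 12 W12 mice entered a single limma model, and genes with a Benjamini–Hochberg adjusted *p* value under 0.05 were called DEGs. All fold changes are given on that log2 scale, as HM minus HT. The normalized counts summed to between 29312993 and 29578160 in W12-HT and to between 29492637 and 30090201 in W12-HM mice, totals that the scaling sets and that do not show the reads sequenced, so the depth is unknown. The mean correlation of a mouse with the other W12 mice was 0.984 to 0.988, and the lowest value belonged to HM mouse 4. The cortical glutamate transporter gene *Slc17a7*, which defines excitatory cortical neurons, lay between 40538 and 46347 normalized counts in all 8 mice. In bulk tissue, fewer cells of a type and less RNA per cell cannot be told apart.

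The 2 genotypes differed in few genes at this size of groups. *Shank2* and *Lars2* passed the threshold, both lower in HM mice, which is 0.0116% of the genes tested, and no gene passed in the higher direction (limma, 523 genes at an unadjusted *p* value under 0.05). An unadjusted *p* value under 0.05 was reached by 1051 genes (6.10%), of which 523 (3.03%) were higher and 528 (3.06%) lower in HM. The groups did not overlap for 527 genes (3.06%), with 246 (1.43%) higher and 281 (1.63%) lower. The median fold change over all genes tested was 0.0002, the median SE was 0.096, and 87.7% of genes differed by less than 0.26 on the log2 scale. When the spread was estimated from the 8 HT and HM mice alone, no gene passed (897 at an unadjusted *p* value under 0.05), and none passed without the variance trend (980).

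**Figure D1:**
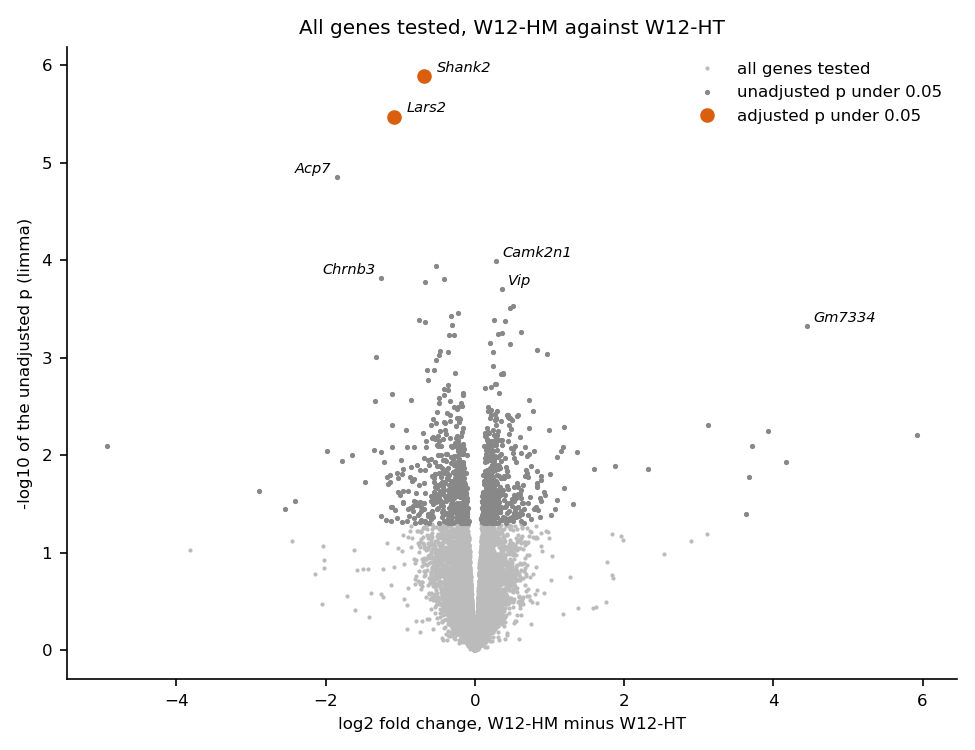
Each point is a gene tested in W12-HM against W12-HT, with the log2 fold change (HM minus HT) on the x axis and -log10 of the unadjusted *p* value on the y axis. *Shank2* and *Lars2* are the 2 genes past the adjusted threshold, *Acp7* stands next, and *Camk2n1* and *Vip* have the smallest *p* values among the higher genes.

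The targeted gene was examined first. *Shank2* (ENSMUSG00000037541, plus strand, chr7:144001928-144424494 in GRCm38) was measured at 5385, 5176, 4289 and 4347 normalized counts in the HT mice and at 3015, 2737, 2698 and 3528 in the HM mice. Every HM mouse lay below every HT mouse, so the genotypes in the labels match the order of the targeted transcript. HT mice had a mean of 4799 ± 563 (SD, n = 4). The mean of HM mice was 2995 ± 383 (SD, n = 4), or 1.60-fold lower, against 7225 ± 403 (SD, n = 4) in WT mice. The log2 fold change was -0.68 (SE 0.09, limma adjusted *p* = 0.0222). The two-sided exact permutation test over the 8 mice gave *p* = 0.0286, the smallest value that 4 mice against 4 allow. The adjusted *p* value was 0.117 without HT mouse 1, 0.0824 without HT mouse 2, 0.105 without HM mouse 1 and 0.117 without HM mouse 2, where the fold change lay between -0.69 and -0.62. *Shank2* RNA was thus still detected in HM mice, and these totals per gene do not show which share of it lacks the deleted exons.

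The steps for the first and the second *Shank2* copy were compared next. The step from WT to HT was -0.60 and the step from HT to HM was -0.68, both of which share the HT mice. The difference between the steps was -0.09 (95% interval -0.41 to 0.24, limma adjusted *p* = 0.905). The 2 relatives did not pass the threshold. *Shank1* lay between 20742 and 25503 normalized counts in HT and between 21288 and 28190.3 in HM mice (0.12, 95% interval -0.06 to 0.30). *Shank3* lay between 7996 and 8748 in HT and between 8148 and 10166 in HM mice (0.15, 95% interval 0.00 to 0.29, unadjusted *p* = 0.0459, adjusted *p* = 0.818 with limma), and the groups overlapped for both genes.

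*Lars2* (chr9:123366927-123462666, plus strand), which encodes the mitochondrial leucyl-tRNA synthetase that charges tRNA for translation inside mitochondria, was the other DEG. It was measured at 7921, 5009.66, 7828 and 7508 normalized counts in HT mice and at 2749, 3429, 4100 and 3028 in HM mice. The groups did not overlap, and HT mouse 2 stood well below the other HT mice. HM mice were 2.12-fold lower (-1.08, SE 0.15, limma adjusted *p* = 0.0292). WT mice, at 4325, 4565, 4673 and 6261, lay between the other genotypes in 3 of 4 mice and overlapped HT through WT mouse 4. The call was lost without HT mouse 1 (adjusted *p* = 0.192), HT mouse 3 (0.129), HT mouse 4 (0.147), HM mouse 1 (0.162), HM mouse 2 (0.117), HM mouse 4 (0.145) or WT mouse 2 (0.0606). Of the 17 mitochondrial aminoacyl-tRNA synthetases tested, 10 were higher and 7 lower in HM, and 1 lower member (*Lars2*) was called. *Cars2*, the cysteinyl enzyme, was the other with an unadjusted *p* value under 0.05 (0.18), against 3.03% of all genes higher and 3.06% lower (limma). *Cars2* overlaps the opposite-strand gene *Naxd* by 984 bases, and reads there cannot be told apart without strand. Of the 20 cytosolic synthetases, 11 were higher and 9 lower, and none had an unadjusted *p* value under 0.05. *Lars2* was thus the single synthetase gene called. These totals per gene do not show which part of the *Lars2* locus its reads came from.

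The gene next in order was *Acp7* (chr7:28607634-28631332, minus strand), which encodes a purple acid phosphatase and had low levels. It was measured at 34.7, 41.7, 32.9 and 49.5 normalized counts in HT and at 10.3, 12.7, 12.7 and 6.36 in HM mice. HM mice were 3.77-fold lower with no overlap (-1.84, SE 0.29), and the adjusted *p* value of 0.0803 missed the threshold. WT mice had 20.3 to 47.4 and overlapped the HT mice.

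**Figure D2:**
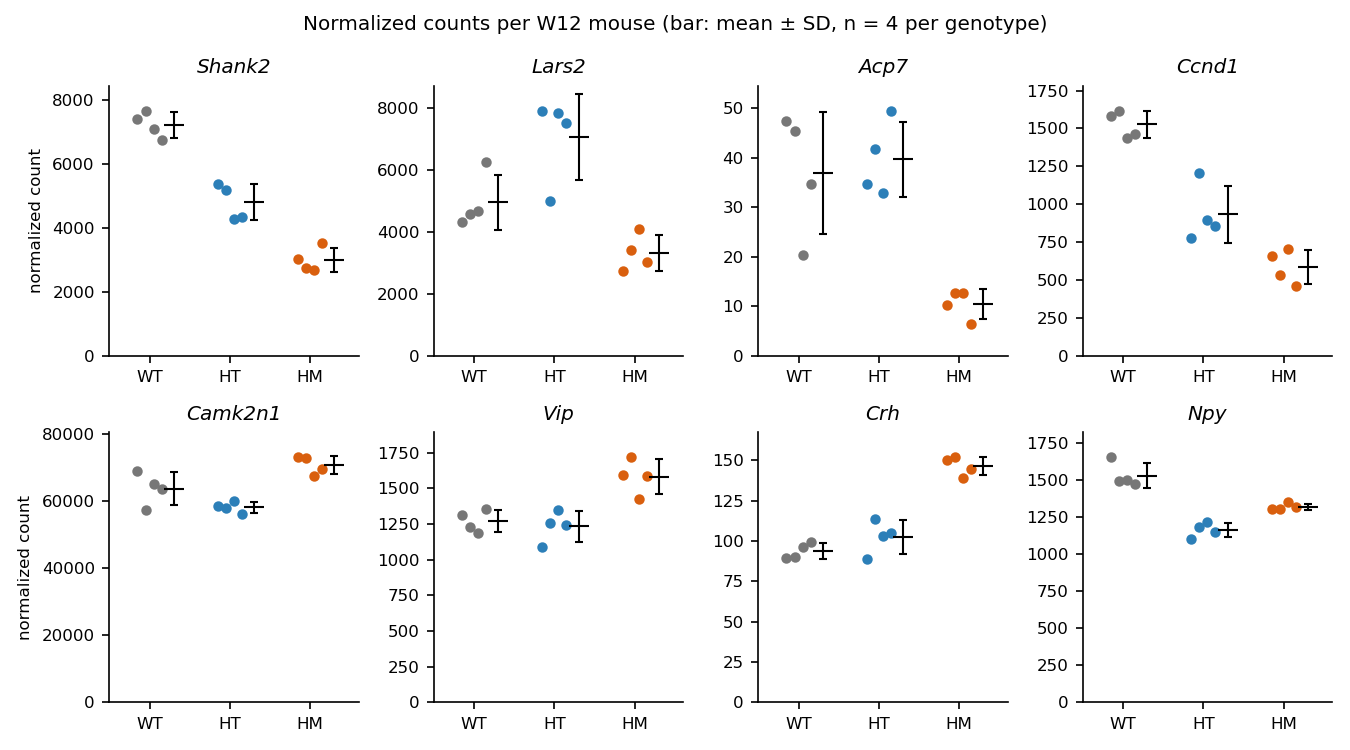
Normalized counts of 8 genes on linear axes, with a dot for each W12 mouse and, beside the dots, the mean and SD of each genotype (n = 4). HM lies below HT in every mouse for *Shank2*, *Lars2*, *Acp7* and *Ccnd1* and above HT in every mouse for *Camk2n1*, *Vip*, *Crh* and *Npy*, while WT lies near HT for *Vip* and *Crh* and above both mutants for *Npy* and *Ccnd1*.

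Behind these, the other 7 of the 10 lower genes with the smallest *p* values began with *Acer3*, an alkaline ceramidase, and *Chrnb3*, a nicotinic acetylcholine receptor subunit. No gene of this group passed the threshold, with adjusted *p* values of 0.358 to 0.423. *Acer3* lay between 707 and 915 normalized counts in HT and between 518 and 644 in HM mice (-0.52, SE 0.10). *Chrnb3* lay between 31.1 and 56.0 in HT and between 10.8 and 19.6 in HM mice (-1.25, SE 0.25), that is, 2.45-fold lower. The transcription factor genes *Zfp592* (-0.42) and *Gli1* (-0.75), the latter the effector of hedgehog signalling, were among them. So were *Tmtc1* (-0.22), which encodes an O-mannosyltransferase of the endoplasmic reticulum, *Fam135a* (-0.32) and *Ccnd1*. Of these 10 lower genes, *Shank2* and *Lars2* included, 10 had groups without overlap (1.63% of all genes in this direction), which the ordering by *p* value favours.

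Among the 10 higher genes with the smallest *p* values, 9 had groups without overlap (1.43% of all genes in this direction), which the ordering by *p* value again favours, and none passed the threshold (adjusted *p* values of 0.358 to 0.423). *Camk2n1*, which encodes an inhibitor of the synaptic kinase CaMKII, led them. Its level (chr4:138454314-138460123, plus strand) was 58629.6, 57988, 60149 and 56075 normalized counts in HT and 73201, 72989.9, 67451 and 69752 in HM mice (0.28, SE 0.05). The higher genes further included *Ak4*, a mitochondrial adenylate kinase (0.48), *Maml3*, a coactivator of Notch signalling (0.40), *Hmgn5*, a nucleosome-binding protein (0.36), and *Pde4dip*, which encodes the centrosomal and Golgi protein myomegalin (0.31). *Zfand3* (0.25) and *Palm2* (0.62) completed the named protein-coding genes beside *Vip* and *Crh*. *Palm2* shares 143838 bases with the same-strand gene *Pakap*, so reads of the 2 genes could not be assigned with certainty. *Gm7334*, a processed pseudogene whose reads can come from its parent gene, was listed at 0, 0, 51.7 and 0 in HT and at 127, 64.6, 32.8 and 40.9 in HM mice. Since 3 HT mice and all 4 WT mice were listed at 0, no fold is given for it.

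Interneuron genes held several of the higher genes. Of 25 GABAergic markers, 13 were higher and 12 lower in HM, none passed the threshold, and 5 higher and 1 lower had an unadjusted *p* value under 0.05 (3.03% and 3.06% of all genes). The 5 were *Vip*, *Crh*, *Npy*, *Lamp5* and *Calb1*, and groups did not overlap for 4 of them (1.43% of all genes in this direction). The median fold change of the list was 0.011.

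*Vip*, which encodes vasoactive intestinal peptide of disinhibitory interneurons, was measured at 1086, 1259, 1346 and 1243 normalized counts in HT and at 1596, 1719, 1422 and 1584 in HM mice (0.36, SE 0.07, adjusted *p* = 0.383). The neuropeptide gene *Crh*, which encodes corticotropin-releasing hormone, was measured at 88.5, 113, 103 and 105 in HT and at 150, 152, 139 and 145 in HM mice (0.51, SE 0.11, adjusted *p* = 0.423). *Npy*, which encodes neuropeptide Y, was measured at 1104, 1182, 1219 and 1153 in HT and at 1306, 1304, 1348 and 1315 in HM mice (0.18, SE 0.05, adjusted *p* = 0.760). These 3 peptide genes, named by their order in the test or beforehand, were thus higher in each HM than in each HT mouse. The differences were 1.28-, 1.43- and 1.13-fold. Other peptide genes of the list differed in both directions. For *Vip* and *Crh* the WT mice, at 1183 to 1353 and 89.3 to 99.6, lay close to the HT mice. For *Npy* they lay above both mutants, at 1473 to 1655. *Lamp5*, a marker of neurogliaform cells, lay between 4170 and 4948 in HT and between 4833 and 5681 in HM (0.22). *Calb1*, which encodes the calcium buffer calbindin, lay between 3438 and 3837 in HT and between 3999 and 4303 in HM (0.17). The lower member was *Prox1*, a transcription factor of interneurons derived from the caudal ganglionic eminence (-0.30, unadjusted *p* = 0.0310, groups overlapping).

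The genes that all GABAergic cells use and those of the other large classes overlapped between the genotypes. *Gad1* and *Gad2*, which encode the enzymes that make GABA, gave -0.09 (95% interval -0.24 to 0.06) and -0.01 (95% interval -0.18 to 0.15). *Pvalb* and *Sst*, the markers of the parvalbumin and somatostatin classes, gave -0.03 (95% interval -0.20 to 0.14) and -0.07 (95% interval -0.21 to 0.06). The signs for *Gad2* and *Pvalb* turned when single mice were left out. The summed level of the 25 markers was 63612 to 66558 normalized counts in HT and 64815 to 67368 in HM mice.

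Genes that neurons switch on within minutes to hours of activity were mostly above their HT levels in HM mice, and this depended on HT mouse 1. Of the 26 such early genes, 24 were higher and 2 lower, with a median of 0.229 against 0.0002 over all genes. Of these, 7 had an unadjusted *p* value under 0.05, all of them higher (background 3.03%), and none passed the adjusted threshold. *Bdnf*, which encodes brain-derived neurotrophic factor, was measured at 491, 583, 550 and 597 normalized counts in HT and at 684, 658, 673 and 661 in HM mice (0.27, SE 0.07, adjusted *p* = 0.728), the single member without overlap. *Fosl2*, an AP-1 subunit, gave 0.36 and *Npas4*, an activity-dependent transcription factor, gave 0.43. *Fos* was measured at 78.4, 382, 336 and 418 in HT and at 393, 456, 401 and 479 in HM mice, while WT mice lay between 136 and 190. *Arc*, which encodes a synaptic protein induced by activity, showed the same low HT mouse, at 692 against 2640 to 3243 in the other 3, with 2129 to 5257 in HM. HT mouse 1 was thus low for both genes, the other HT mice lay close to the HM mice, and the WT mice, with 1102 to 1475 for *Arc*, lay between.

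Averaged over the 26 genes, HT mouse 1 lay -0.520 from the W12 mean on the log2 scale, the other HT mice lay between 0.010 and 0.132 and the HM mice between 0.080 and 0.376. Without HT mouse 1, 20 members were higher and 6 lower, 2 had an unadjusted *p* value under 0.05 and the median was 0.10. Without HM mouse 4, the highest HM mouse, 21 were higher and the median was 0.190. In W3 mice the median was -0.098, with 12 members higher and 14 lower, of which 3 higher and 0 lower had an unadjusted *p* value under 0.05. The excess of higher members was thus smaller without that mouse, with 20 of 26 higher.

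Promoters of *Bdnf*, *Fos* and *Vip* are shown because early genes and *Vip* share a known regulatory element, the cyclic AMP response element bound by CREB, whose core was searched here as TGACGT on both strands. Sequences are from RefSeq (GRCm38.p6, plus strand for all 3), 250 bases before to 50 after the listed start, with the matches in capitals: chr2:109692186-109692485 for *Bdnf*, chr12:85473640-85473939 for *Fos* and chr10:5638968-5639267 for *Vip*.
Bdnf: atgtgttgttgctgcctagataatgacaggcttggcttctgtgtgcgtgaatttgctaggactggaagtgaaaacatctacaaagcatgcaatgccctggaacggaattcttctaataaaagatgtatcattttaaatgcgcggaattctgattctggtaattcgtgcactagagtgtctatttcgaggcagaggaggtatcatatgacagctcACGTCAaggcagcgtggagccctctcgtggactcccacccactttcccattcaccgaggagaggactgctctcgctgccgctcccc
Fos: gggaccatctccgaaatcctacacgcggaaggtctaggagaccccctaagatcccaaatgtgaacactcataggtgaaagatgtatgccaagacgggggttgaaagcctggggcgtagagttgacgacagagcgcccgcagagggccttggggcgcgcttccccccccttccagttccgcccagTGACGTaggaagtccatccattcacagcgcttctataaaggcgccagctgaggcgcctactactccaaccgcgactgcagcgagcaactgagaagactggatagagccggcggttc
Vip: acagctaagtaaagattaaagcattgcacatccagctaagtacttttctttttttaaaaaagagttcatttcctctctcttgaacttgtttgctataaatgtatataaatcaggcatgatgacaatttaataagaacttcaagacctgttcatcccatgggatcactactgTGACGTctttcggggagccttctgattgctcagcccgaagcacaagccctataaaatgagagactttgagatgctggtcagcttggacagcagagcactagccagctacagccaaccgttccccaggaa
The *Bdnf* window holds the element on the other strand, as ACGTCA. Among the 19 early genes with a promoter in the table, 9 held the element (47.4%), among them *Npas4*, against 8.37% of the 27025 genes in the table. Of the 10 higher genes 6 were in the table and *Vip* held it, and of the 10 lower genes 6 were in the table and 0 held it. The share in the listed early genes is a property of that list and does not bear on HM against HT. A match is a description of these windows, and binding was not measured.

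Myelin genes lay lower on average in HM mice, with wide spread. Of 16 oligodendrocyte markers, 15 were lower and 1 higher (median -0.232). None passed the threshold, 3 lower members had an unadjusted *p* value under 0.05 (background 3.06%) and no member had groups without overlap. The 3 were *Ermn*, which encodes ermin of the myelin sheath (-0.39), *Aspa*, the enzyme that cleaves N-acetylaspartate (-0.52), and *Myrf*, the transcription factor that drives myelin genes (-0.30). *Mbp*, which encodes myelin basic protein, was measured at 32250.0, 36382.5, 38012 and 33530.1 normalized counts in HT and at 26099, 30240.0, 39594 and 25437 in HM mice (-0.23), and *Mog*, a protein of the outer myelin surface, gave -0.42. HM mice 1, 2 and 4 lay below every HT mouse for *Mbp*, whereas HM mouse 3 lay above them.

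Over the 16 markers, the HT mice lay between -0.079 and 0.157 of the W12 mean on the log2 scale, and the HM mice at -0.348, -0.090, 0.111 and -0.550. Without HM mouse 3 the median was -0.367 with 10 members at an unadjusted *p* value under 0.05, without HM mouse 4 it was -0.116 with 0, and without HM mouse 1 it was -0.179 with 0. The summed level of the list was 88716 to 107048 normalized counts in HT and 72187 to 107124 in HM mice. At W3, where none of the mice are shared, all 16 markers tested were lower in HM than in HT, 15 of them at an unadjusted *p* value under 0.05 (background 5.75%), with a median of -0.404.

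Genes of the striatum, which lies beside the dissected cortex and is crossed by myelinated fibres, varied between the HM mice as well. Of 14 striatal markers tested, 3 were higher and 11 lower (median -0.127), and *Pdyn* was among the higher ones (0.21). At an unadjusted *p* value under 0.05 were 1 higher and 0 lower members (limma, 3.03% and 3.06% of all genes). The HM mice lay at -1.14, -0.224, 0.788 and 0.058 on the same scale, against -0.187 to 0.271 in HT. HM mouse 4 was the lowest of the W12 mice for myelin (-0.55) and lay within the HT range for striatal markers. HM mouse 1 was low in both lists (-0.348 for myelin), and HM mouse 3 was the highest HM mouse in both (0.111 for myelin). *Drd2*, the dopamine receptor gene of indirect-pathway neurons, lay between 211 and 316 normalized counts in HT and at 57.1, 163, 563 and 259 in HM mice (-0.51, SE 0.53). *Drd1*, the receptor of the direct pathway, lay between 408 and 591 in HT and between 195 and 680 in HM mice (-0.51, SE 0.29). No striatal marker was at 0, and the summed level was 13997 to 17631 in HT and 9907 to 24107 in HM mice. HM mouse 1 was the lowest and HM mouse 3 the highest of the 12 W12 mice in this list. Leaving out HM mouse 1 turned the striatal median to 0.101, and leaving out HM mouse 3 gave -0.475. At W3, where the myelin markers were lower, 13 of the 14 striatal markers were lower in HM as well (median -0.62). Of these 14, 6 lower and 1 higher had an unadjusted *p* value under 0.05 (limma, background 5.75% and 4.73%). The part of striatal tissue in the myelin values was not tested at either age.

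**Figure D3:**
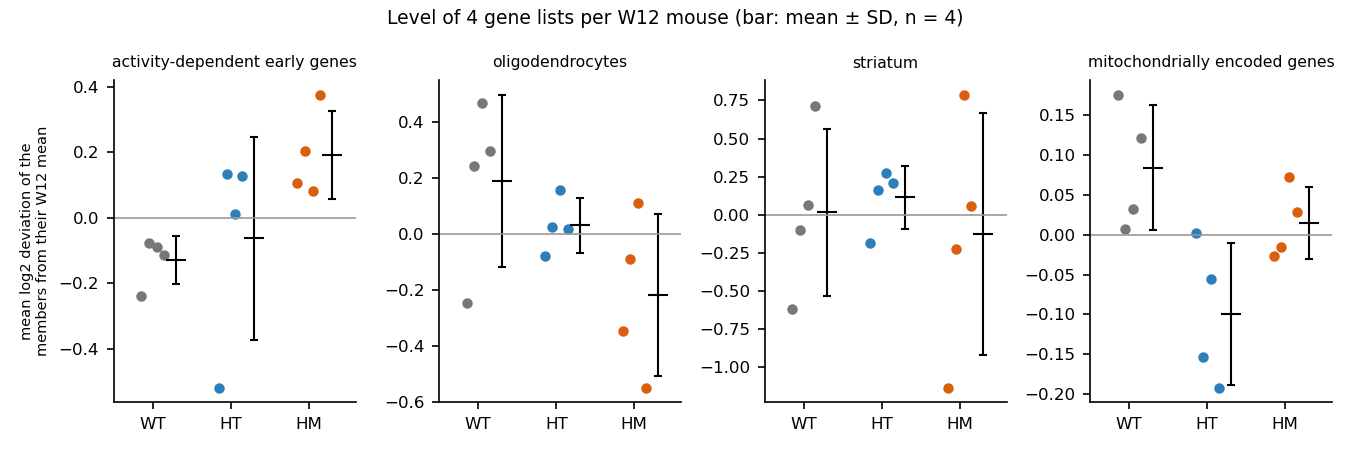
Mean log2 deviation of the members of 4 gene lists from their own W12 mean (y axis, log2 units), with a dot for each mouse and the mean and SD per genotype (n = 4). A single HT mouse, at -0.520, sets apart the HT early genes, the HM mice span -0.550 to 0.111 for oligodendrocyte markers and -1.14 to 0.788 for striatal markers, and each HT mouse lies below each WT mouse in the mitochondrial list.

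Genes of the excitatory postsynapse differed by small amounts. Of 34 postsynaptic scaffold genes, 23 were higher and 11 lower (median 0.054). None passed the threshold, while 4 higher and 1 lower had an unadjusted *p* value under 0.05 (3.03% and 3.06% of all genes). *Lrrtm1*, an adhesion protein that organizes excitatory synapses, lay between 964 and 1162 normalized counts in HT and between 1187 and 1478 in HM mice (0.29, SE 0.08), although its locus lies within the opposite-strand gene *Ctnna2*, and reads of the 2 genes cannot be told apart without strand. *Homer1*, which encodes the partner of Shank proteins, lay between 4307 and 4950 in HT and between 5182 and 6400 in HM mice (0.30, SE 0.09). *Dlg4* (0.12) and its relative *Dlg3* (0.10) were the other higher members, and *Kalrn*, which encodes a signalling protein of dendritic spines, was the lower (-0.10). Thus the named scaffold genes differed by at most 0.30 on the log2 scale.

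Of 21 AMPA and kainate receptor genes with their auxiliary subunits, 17 were higher and 4 lower (median 0.061), and 2 of the higher ones had an unadjusted *p* value under 0.05, the auxiliary subunit genes *Shisa9* (0.13) and *Cacng2* (0.10), with *Cnih2* next (0.12, unadjusted *p* = 0.0528). Of 6 NMDA receptor subunit genes, 4 were higher and 2 lower with none under 0.05, and *Grin2b* gave 0.06 (95% interval -0.09 to 0.20). Of 7 metabotropic glutamate receptors, 2 were higher and 5 lower, and the presynaptic receptor gene *Grm2* had an unadjusted *p* value of 0.0349 (-0.21). Of 16 GABA receptor genes, gephyrin and collybistin included, 6 were higher and 10 lower, and the subunit gene *Gabrg3* had an unadjusted *p* value of 0.0485 (-0.14). No receptor gene passed the adjusted threshold. Of all genes, 3.03% were higher and 3.06% lower at an unadjusted *p* value under 0.05 (limma).

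Mitochondrial transcripts were slightly higher in HM than in HT mice under the deposited scaling. Of 15 genes encoded by the mitochondrial genome, 14 were higher and 1 lower (median 0.133), 4 of them at an unadjusted *p* value under 0.05 (background 3.03%). Against WT mice the list median was -0.185 in HT and -0.098 in HM mice, so by median both mutants lay below WT. *mt-Nd6*, a complex I subunit, was measured at 30338, 29536, 28881 and 28930.4 normalized counts in HT and at 35754, 32111, 33774 and 33020.2 in HM mice (0.19, SE 0.06). *mt-Nd2*, another complex I subunit, gave 0.19, and *mt-Cytb*, of complex III, gave 0.15, which turned to -0.016 under quantile normalization. Under that scaling 10 members were higher and 5 lower, with a median of 0.044. The mitochondrial ribosomal RNA genes *mt-Rnr1* and *mt-Rnr2*, the members measured here of a list of 12 genes with ribosomal RNA sequence, gave 0.06 and 0.02, the latter -0.025 under quantile normalization. In libraries selected for poly-A, levels of these RNAs also depend on that selection.

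The nuclear genes of energy production and translation differed less. Of 80 nuclear OXPHOS subunits, 56 were higher and 24 lower (median 0.035), and *Atp5l* of ATP synthase (0.16) and *Uqcrq* of complex III (0.14) had an unadjusted *p* value under 0.05. Of 78 mitochondrial ribosomal protein genes, 55 were higher and 23 lower (median 0.026), with *Mrpl48* under 0.05 (0.14). *Mrpl48* overlaps the opposite-strand gene *Rab6a* by 892 bases, and reads there cannot be told apart without strand. Of 81 cytosolic ribosomal protein genes, 40 were higher and 41 lower (median -0.002), with *Rpl12* under 0.05 (0.31) and *Rpl41* next (0.12). Higher members at that *p* value (limma) made up 1.23% to 2.5% of these 3 lists, against 3.03% of all genes. Lower members made up 0%, against 3.06% of all genes. *Rpl13* lay between 3942 and 4032 normalized counts in HT and between 3549 and 4400 in HM mice (-0.07, 95% interval -0.22 to 0.08), below the 4655 to 5713 of WT mice in both. *Rpl35a* lay between 1584 and 1644 in HT and between 1640 and 1685 in HM mice (0.04, 95% interval -0.05 to 0.13), against 1917 to 2019 in WT. For these 2 ribosomal protein genes both mutant groups thus lay below WT, and the mutants overlapped.

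Genes beside *Shank2* on chromosome 7 were examined because they travel with the mutant allele. Within 5 Mb of *Shank2*, 104 of 114 genes were tested, 51 were higher and 53 lower (median -0.007), 6 higher and 4 lower members had an unadjusted *p* value under 0.05 (3.03% and 3.06% of all genes), and none but *Shank2*, which is outside the list, was called. *Ccnd1* (chr7:144929931-144939925, minus strand), which encodes the cell cycle protein cyclin D1, was measured at 779, 1207, 895 and 859 normalized counts in HT and at 660, 535, 703 and 460 in HM mice (-0.66, SE 0.13, adjusted *p* = 0.358), and at 1439 to 1618 in WT. The step from WT to HT passed the threshold (-0.73, limma adjusted *p* = 0.0445), the step from HT to HM did not, and the difference between the steps was 0.06 (95% interval -0.43 to 0.55). *Ccnd1* overlaps *LTO1* by 1771 bases on the other strand. *Tpcn2*, which encodes a lysosomal cation channel, was 1.48-fold lower (-0.57) and *Drd4*, the dopamine D4 receptor gene, was 2.35-fold lower at levels of 4.27 to 19.6 normalized counts (-1.11).

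The higher member with the largest difference, *Gm26793*, a predicted antisense gene 470066 bases beyond the end of *Shank2*, was measured at 87.6, 30.5, 43.0 and 53.9 in HT and at 103, 97.9, 91.9 and 55.3 in HM mice, against 1.17 to 4.24 in WT (HM minus HT 0.75, adjusted *p* = 0.815). *Fgf15*, which encodes a growth factor and overlaps *Gm26793* by 931 bases on the other strand, was measured at 7.17 to 32.8 in HT and 6.17 to 20.2 in HM mice, with 0 to 0.856 in WT. Without strand in the library, reads in the overlap of these 2 genes cannot be told apart. *Krt80*, a keratin gene on another chromosome, lay between 185 and 266 in HT and between 130 and 169 in HM mice (-0.64, adjusted *p* = 0.691), and *Myl4*, a myosin light chain gene, gave -0.20. Linked sequence from the strain in which the allele was made and the loss of *Shank2* cannot be told apart at this locus.

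**Figure D4:**
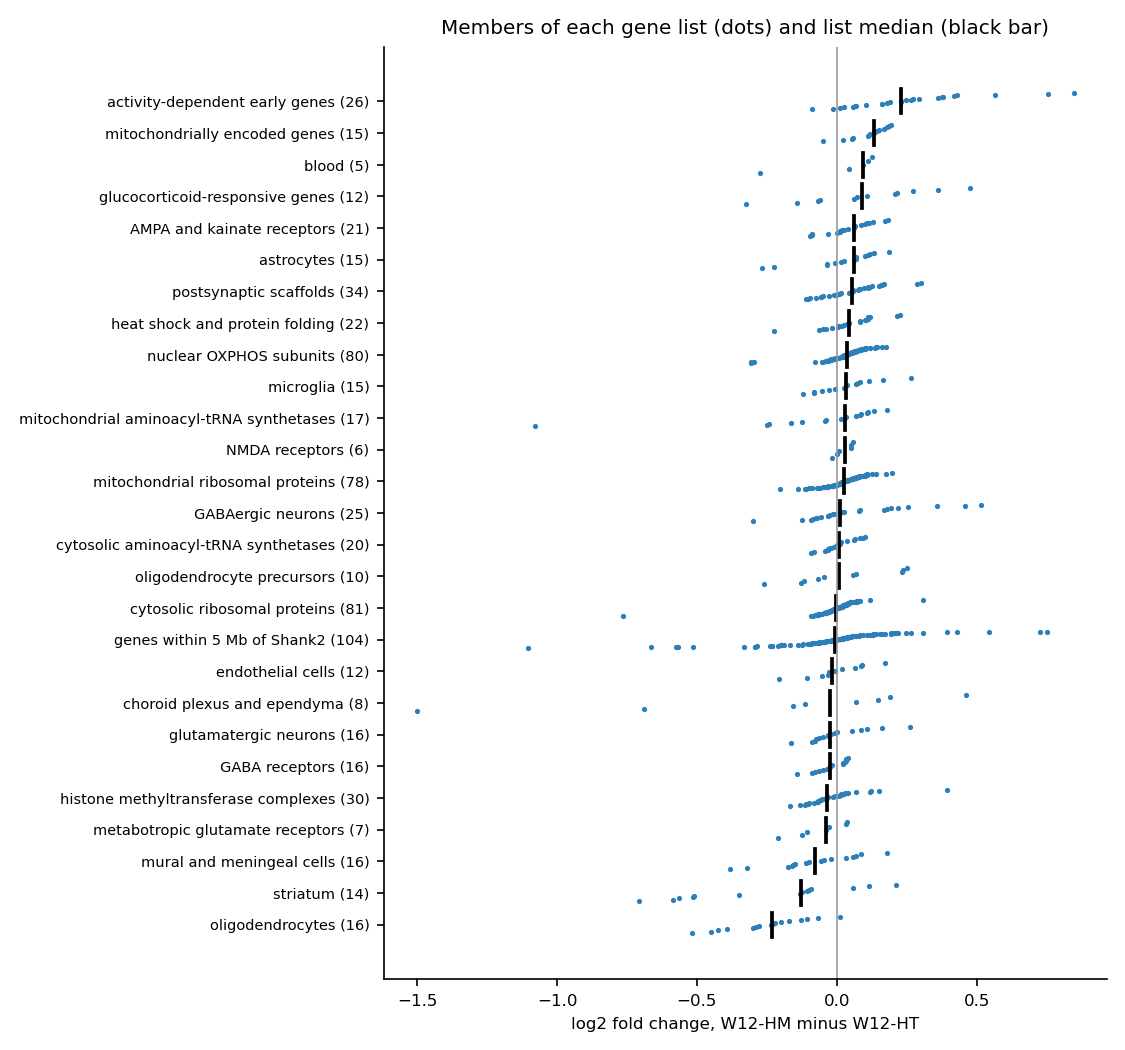
Log2 fold changes (x axis, HM minus HT at W12) of the members of the 27 gene lists with at least 5 genes tested, as dots ordered by value within each row, with the list median as a black bar and the number of genes tested in parentheses. Early genes have the highest median (0.229) and oligodendrocyte markers the lowest (-0.232), and *Lars2* lies apart at -1.08 among the mitochondrial synthetases.

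No member of the remaining lists of pathways and cell types passed the threshold, and their counts at an unadjusted *p* value under 0.05 are set against 3.03% of all genes higher and 3.06% lower. Of 30 histone methyltransferase complex genes, 11 were higher and 19 lower, with *Kdm6a* (-0.17) and *Setd5* (-0.10) under 0.05 and *Nsd1* next (-0.13). Of 22 heat shock and folding genes, 17 were higher and 5 lower, and 4 higher members were under 0.05, among them the chaperone genes *Dnajb5* (0.21), *Dnajb1* (0.11) and *Sdf2l1* (0.23). Of 12 glucocorticoid-responsive genes, 8 were higher and 4 lower with none under 0.05 (median 0.09). *Sgk1*, a kinase gene of that response, gave -0.32 and *Fkbp5* gave 0.476. Averaged over this list, HM mouse 4 lay 0.578 from the W12 mean, and the other HM mice lay between -0.452 and -0.061. Without HM mouse 4 the list median was -0.066. Of 16 glutamatergic neuron markers, 5 were higher and 11 lower, with *Nrgn*, which encodes neurogranin (0.16), and the transcription factor gene *Neurod6* (0.26) under 0.05.

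Among the markers of other cells that the tissue holds, 10 of 15 astrocyte genes, 5 of 10 genes of oligodendrocyte precursors, 9 of 15 microglial genes, 5 of 12 endothelial genes and 5 of 16 mural and meningeal genes were higher. Of 8 choroid plexus and ependymal genes 4 were higher, and of 5 blood genes 4. Each of these lists had 1 member or 0 at an unadjusted *p* value under 0.05. The 10 ASD-related gene sets of the study's supplementary list had medians between -0.024 and 0.002. Its 20 cell-type sets credited to Kang had medians between -0.069 and 0.024. The study's single-nucleus cell-type sets were not used. Shares of members at an unadjusted *p* value under 0.05 were 2.42% to 6.03% higher and 1.27% to 7.24% lower in the ASD-related sets, and 1.14% to 7.95% higher and 2.04% to 9.20% lower in the cell-type sets, against 3.03% and 3.06% of all genes. The study's set of mature oligodendrocyte genes had 30 of 87 members higher and 57 lower, 8 of the lower ones at that *p* value, with a median of -0.047 against the -0.232 of the 16 markers above. *Shank2* and *Lars2* were the called members among them.

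Whether the second copy acts by another amount than the first was tested for all genes as the difference of the steps, HM minus HT against HT minus WT. None of the 17243 genes passed (limma, smallest adjusted *p* = 0.194), with 1574 (9.13%) at an unadjusted *p* value under 0.05, 4.70% in the positive and 4.43% in the negative direction. *Npy* had the smallest *p* value, with -0.39 from WT to HT and 0.18 from HT to HM (difference 0.57, 95% interval 0.38 to 0.76). For *Lars2* the steps were 0.50 and -1.08 (difference -1.58, 95% interval -2.14 to -1.02). *Maml3* (-0.48 and 0.40), *mt-Nd6* (-0.34 and 0.19) and *Acer3* (0.37 and -0.52) likewise had steps of opposite sign. Among the 10 higher and the 10 lower genes, the step from WT to HT had the opposite sign in 7 and 7. Both steps contain the same HT mice, so a chance deviation of these 4 mice moves them in opposite directions, and the counts are given as a description.

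The same contrast was available in other mice at W3, in 5 HM against 5 HT juveniles. There 2 of 17065 genes passed in limma (0.0117%), again *Shank2* (-0.78, SE 0.08, adjusted *p* = 0.000302) and *Ppm1l*, a protein phosphatase gene (-0.26, SE 0.04, adjusted *p* = 0.0490). *Ppm1l* gave -0.22 at W12 (SE 0.09, adjusted *p* = 0.779), with 5051 to 6240 normalized counts in HT and 4363 to 5420 in HM mice. Across the 16833 genes tested at both ages, fold changes had a Pearson correlation of 0.047 and the same sign in 55.9%, as a description over genes, which are not independent and share the normalization. Besides *Shank2*, 141 genes had an unadjusted *p* value under 0.05 at both ages, and 118 of them had the same sign. The 141 genes were 13.7% of those at that *p* value at W12, against 10.5% of all genes at W3. They were 7.97% of those at W3, against 6.1% of all genes at W12.

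Of the 10 leading higher genes, 8 had the same sign at W3 and 2 of these an unadjusted *p* value under 0.05, while 1 (*Palm2*) had the opposite sign at that *p* value. Of the 9 leading lower genes tested at W3, 9 had the same sign and 4 an unadjusted *p* value under 0.05, *Shank2* included, against 4.73% of all genes higher and 5.75% lower at that *p* value. *Vip* gave 0.34 at W3 (SE 0.07, adjusted *p* = 0.165), with 1071 to 1276 normalized counts in HT and 1343 to 1528 in HM mice. Its juvenile groups did not overlap, which held for 1.91% of all genes (0.955% higher and 0.955% lower), the exact permutation test gave *p* = 0.00794, the smallest value for 5 mice against 5, and the W12 minus W3 difference was 0.02 (95% interval -0.21 to 0.24). *Crh* gave 0.33 (SE 0.14), *Tmtc1* -0.17 (SE 0.06) and *Chrnb3* -0.55 (SE 0.23). *Lars2* gave -0.84 (SE 0.30, adjusted *p* = 0.341) at W3, with 8513 to 10479 in HT mice and a wide spread of 10227, 3260, 9110, 6784 and 2264 in HM mice.

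The difference of HM from HT was then compared between the ages in all 27 mice. None of 17168 genes passed (limma, smallest adjusted *p* = 0.548), with 944 (5.50%) at an unadjusted *p* value under 0.05, 3.01% with a more positive difference at W12 and 2.49% with a more negative one. *Palm2* was 0.62 at W12 and -0.50 at W3 (difference 1.12, 95% interval 0.63 to 1.61, limma adjusted *p* = 0.548). *Acp7*, whose juvenile mean was too low for the W3 test, had 6.89 to 13.3 normalized counts in HT and 7.76 to 12.5 in HM mice at W3. *Mt2*, which encodes the metal-binding protein metallothionein 2, gave 0.21 at W12 and -0.51 at W3 and had the same adjusted *p* value of 0.548.

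**Figure D5:**
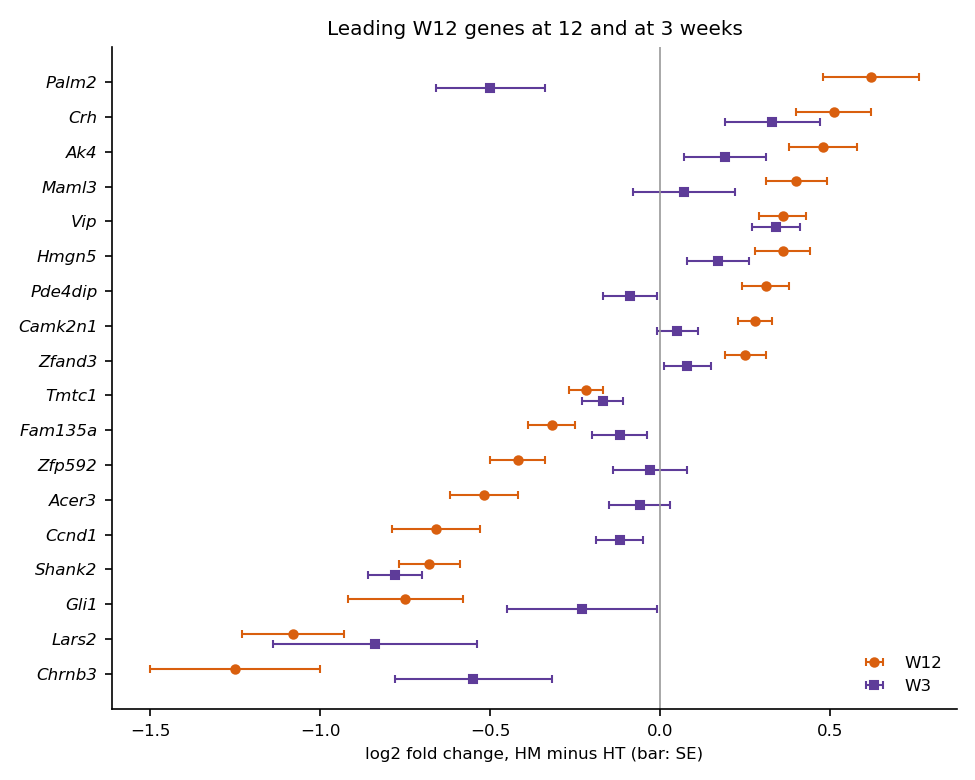
Log2 fold change of HM against HT with its SE (x axis) at W12 (circles) and W3 (squares) for the leading W12 genes that were tested at both ages, without *Gm7334*. *Shank2* and *Vip* lie close at both ages, *Palm2* and *Pde4dip* lie on opposite sides of 0, and most other genes lie nearer to 0 at W3 than at W12, where they were chosen.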

How the data were processed

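Poly-A RNA of the medial prefrontal cortex was sequenced from 27 male mice with a kit that does not mark strand. The authors quantified transcripts with Salmon 1.1.0 on GRCm38, summed them per gene and normalized them with DESeq2 1.26.0 (versions per the processing notes of the labels), and the deposited signal values are these normalized counts, scaled over all 27 samples together. Values were not whole (0.328%, all of them 0), so reads were not recovered, depth is unknown and no count model was used. Genotypes and ages came from the sample labels, 4 or 5 mice per group, each a separate brain.

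Genes averaging 10 or more in the 8 W12-HT and W12-HM mice were analysed as log2 of the value plus 1 with limma 3.58.1 in R 4.3.3, with a variance trend and Benjamini–Hochberg adjustment over all genes tested. The contrasts were HM minus HT, that step minus the step from WT to HT, the same contrast in the 15 W3 mice, and the difference between the ages in 27 mice. Intervals are 95% limma intervals without adjustment. Single genes were also tested by exact two-sided permutation. The fits were tested on simulated data.

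The comparison, the gene lists and the named genes were chosen with earlier results of these data known. The ASD-related sets and the cell-type sets credited to Kang were taken from the study, without its single-nucleus sets. Named by rule were the *Shank* genes, called genes, the 10 higher and 10 lower genes with the smallest *p* values, 3 members per list by *p* value, and *Gm26793*, *Fgf15*, *Ccnd1*, *Krt80*, *Myl4*, *Npy*, *Rpl13* and *Rpl35a*. *Fos*, *Arc*, *Prox1*, *Gad1*, *Gad2*, *Pvalb*, *Sst*, *Dlg4*, *Dlg3*, *Mbp*, *Mog*, *Drd2* and *Slc17a7* were added after their values were seen. Other offsets, filters, scalings, sample sets, weights, a replicate block and leaving out each mouse were tried. Promoters were read from RefSeq (GRCm38.p6).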

Additional observations from a re-analysis of the deposited data

Results flagged for a closer look

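Among the genes named, 168 groups of 4 mice were checked for a single mouse whose gap to the nearest other exceeded 0.829 of the group's range, and chance alone marks about 1 in 20 such groups. In W12-HT, *Lars2* was low in mouse 2 (5009.66 normalized counts), *Gm7334* was high in mouse 3 (51.6567) against 0 in the others, *Palm2* was high in mouse 1 (626.907), *Atp5l* was high in mouse 4 (1695.99) and *Fgf15* was high in mouse 1 (32.7586). In W12-HM, mouse 4 was low for *Chrnb3* (10.8246) and *Fgf15* (6.17135) and high for *Rpl13* (4400.28). These 8 marks were fewer than 1 in 20 of the groups checked. No difference between the ages or between the dosage steps passed the threshold for a named gene.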

How the results depend on the processing

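The count of 2 DEGs held with an offset of 10, without a filter, with a minimum mean of 100, under quantile and median ratio scaling and in protein-coding genes. It was 0 with the HT and HM samples alone and without the variance trend, where *Shank2* kept a log2 fold change of -0.681, and 1 with array weights. Leaving out each mouse gave 0 to 3 DEGs, *Shank2* fold changes of -0.763 to -0.623, and 0 to 1 genes for the difference of the steps. At W3 the count was 1 without a filter, under quantile and median ratio scaling and without the trend, 9 with HT and HM samples alone, 31 with array weights, and 1 to 23 when each mouse was left out. The median of all genes was 0.0002 as deposited, -0.0001 under quantile normalization and -0.0057 under median ratio scaling. The causes were not tested.

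With the replicate number as a block the W12 count stayed at 2 (adjusted *p* = 0.0457 for both genes, limma) and the W3 count was 5. Deviations of same-numbered HT and HM mice had correlations of -0.0345 to 0.0683. Such values cannot exclude a small effect shared by paired mice, and the labels do not state littermates, so pairing stayed unknown.

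The direction turned for 5 named genes, none of them called. Under quantile normalization *mt-Cytb* gave -0.016 and *mt-Rnr2* -0.025. When each mouse was left out, *Gad2* ranged from -0.067 to 0.046 (0.019 without HT mouse 2 and 0.005 without HM mouse 2), *Pvalb* from -0.092 to 0.010 (0.006 without HM mouse 1 and 0.007 without HM mouse 4), *Drd2* from -1.03 to 0.063 and *mt-Rnr2* from -0.007 to 0.050. Of the list medians, the mitochondrial genome gave 0.044 under quantile normalization, the subcortical glutamatergic set -0.015 under that scaling and -0.018 with array weights, and the layer 1 set 0.002 with array weights. Left-out mice moved the mitochondrial synthetases from -0.010 to 0.059, GABAergic markers from -0.017 to 0.046, the VIP set from -0.001 to 0.029, the set of layers 2 to 4 from -0.001 to 0.022 and the layer 5 set from -0.009 to 0.021. Several lists with a wide spread between mice moved further across 0. Glucocorticoid-responsive genes ranged from -0.066 to 0.223 and blood genes from -0.135 to 0.298. Choroid plexus and ependymal genes ranged from -0.132 to 0.07, and mural and meningeal genes from -0.162 to 0.022.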
